A study of Mus musculus with 10 samples.

Results

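The 38 genes described here act in homologous recombination, the Fanconi anaemia pathway and mismatch repair, or signal DNA breaks to these pathways. They were chosen by symbol among the 21849 genes of a count table of CT26 tumours, a transplantable colon carcinoma line of BALB/c mice. The list was drawn up with results of the diet comparison known, Msh5 among them, so the differences between diets below describe the members and support nothing, and the list does not hold every gene of these pathways. Of the 38 genes, 37 had enough counts to enter the test across all genes. The exception was Fanca, a subunit of the Fanconi core complex, which was listed at 0 in all 10 libraries. All of its annotated exonic bases lie inside the bodies of Gm20388 and Zfp276, so its 0 gives no level.

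BALB/c mice 5 weeks old were put on a normal diet or on a diet of equal calories from which arginine had been removed. After 1 week CT26 cells were injected under the skin, and the tumours were collected on day 20. Each diet gave 5 libraries of total RNA from whole tumours, with no other treatment or genotype named, and the sample titles beginning with Arg were taken for the deficient diet and those with Control for the normal one. The libraries held 12013178 to 31530123 counts. A tumour mixes cancer cells with host cells, and fewer cells of a type cannot be told apart from less RNA per cell. Of the colon epithelial markers, Krt20 lay at 83 to 264 CPM (counts scaled to a common library size, with TMM factors) and Lgals4 at 6.19 to 14.7, while Epcam, Cdx1, Cdx2, Vil1 and Krt19 stayed under 1 CPM in every library. The summed level of the 11 colon markers was 99.6 to 245 CPM on the deficient diet and 210.5 to 305 CPM on the normal diet (exact permutation p = 0.0397, n = 5 each, adjusted p = 0.481 over 13 measures of the libraries), and its part in the results was not tested. Krt20 alone held most of the colon sum in every library. The summed level of 16 skeletal muscle markers ranged from 27.8 to 6996 CPM, with the highest values in arginine-deficient replicates 3 and 4 and normal-diet replicate 4. Of 12929 genes tested, 7 passed an adjusted p of 0.05 in edgeR's quasi-likelihood test, all higher on the deficient diet, which is 0.0541% of the genes.

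Homologous recombination repairs a double-strand break by copying an intact sister duplex. The MRN complex and the kinases ATM and ATR sense the damage, BRCA1 and BRCA2 with their partners load the recombinase onto single-stranded DNA, and helicases resolve the joined molecules. The Fanconi anaemia proteins unhook crosslinks between the strands and hand the break to recombination, whereas the MutS and MutL proteins of mismatch repair find and remove replication errors. Many of these genes are transcribed mostly in dividing cells. CT26 cells are a common model of a mouse colon tumour that grows in a host with an intact immune system.

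Most members lay slightly lower in the tumours of arginine-deficient mice, and none passed the test. The log2 fold change, deficient minus normal, (given below with its standard error after the ± sign) was negative for 27 of 37 members (73.0%), against 49.7% of all genes tested, and its median was -0.12, against 0.0012 over all genes. Members ranged from -0.76 for Msh5, which pairs with MSH4 in meiotic crossover formation, to 0.44 for its partner Msh4. By edgeR, 0 of 37 members had an adjusted p under 0.05, while 6 had an unadjusted p under 0.05. DESeq2 called 2 members, Msh5 and Brca2, and limma voom with sample weights called these and Fancd2, where the share of all genes called was 1.01% and 2.88%. The 6 were Msh5, Brca2, Fancd2, Fancl, Rad51b and Rad51d, all lower on the deficient diet, where 6.74% of all genes passed in either direction and 3.19% in the lower direction. The 5 libraries of each diet did not overlap for 2 members, Msh5 and Brca2, both lower, against 1.65% of all genes in either direction and 0.812% in the lower one. That count was 4 when either arginine-deficient replicate 1 or replicate 5 of the normal diet was left out, where 2.42% and 3.17% of all genes did not overlap. It was 5 without the 3 libraries richest in muscle markers, where 10.5% of all genes did not overlap. With 1 library left out, the count at an unadjusted p under 0.05 ranged from 2, when either arginine-deficient replicate 2 or replicate 3 of the normal diet was left out (5.91% and 4.37% of all genes), to 9 without normal-diet replicate 5 (7.55%), and was 3 when either arginine-deficient replicate 4 or replicate 2 of the normal diet was left out (6.29% and 5.82%). It was 3 without the muscle-rich libraries (8.42%) and 13 with limma voom (20.0%).

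**Figure D1:**
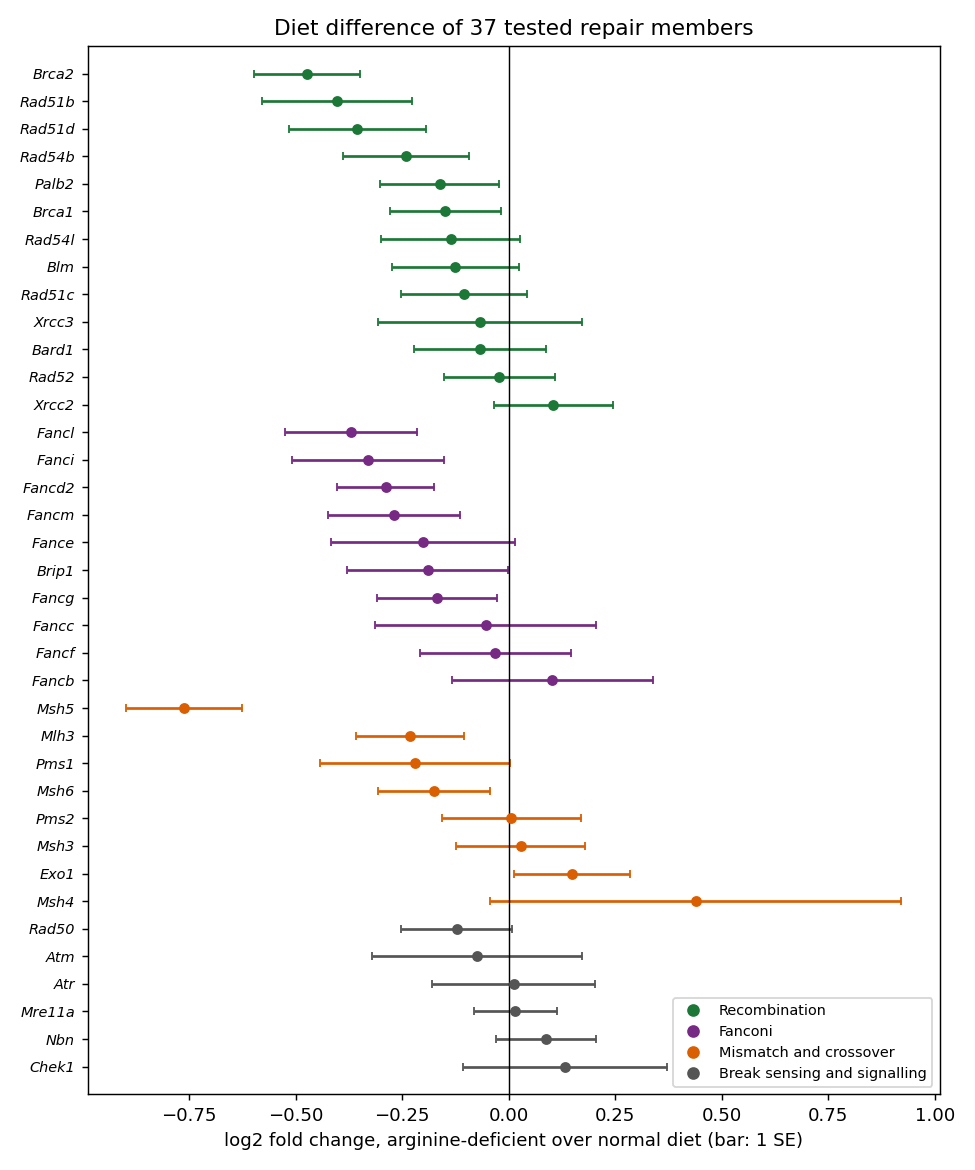
Log2 fold change of the 37 tested members, arginine-deficient minus normal diet, with 1 standard error on each side, grouped by role. Msh5 at -0.76 and Brca2 at -0.47 lie farthest to the left among the members, and 27 of the 37 points lie below 0.

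The groups lay at different places, although no test compared them with each other. In recombination 12 of 13 genes lay below 0 and the median log2 fold change was -0.14. In the Fanconi group this held for 9 of 10 tested genes, and the median was -0.20. The mismatch repair group, which includes the meiotic genes Msh4 and Msh5, was divided evenly, 4 of 8 being negative with a median of -0.08. Among the 6 genes of break signalling 2 were negative with a median of 0.01. Leaving out 1 library moved the recombination median between -0.23 (arginine-deficient replicate 3, with -0.22 for normal-diet replicate 5) and -0.09 (arginine-deficient replicate 2). It moved the mismatch repair median between -0.16 (normal-diet replicate 5, with -0.15 for arginine-deficient replicate 4) and -0.03 (arginine-deficient replicate 5), with -0.05 for arginine-deficient replicate 2 and for normal-diet replicates 2 and 4. With Msh4 left out by a filter of 1 CPM in 5 libraries, the mismatch repair median was -0.18. The mean level of a list of mitosis genes also lay lower on the deficient diet, and its part in the members' values was not tested beyond the covariate fit given here. It was 6.93 ± 0.157 log2 CPM on the deficient diet and 7.09 ± 0.0910 on the normal diet (SD, n = 5 each, exact permutation p = 0.0794, adjusted p = 0.481 over 13 measures of the libraries). With that level as a covariate, 15 of 37 members were negative and their median was 0.036. In the same fit 47.5% of all genes were negative, with a median of 0.0198, and 0 genes were called.

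The bases before the start site are shown for 4 members that mark the range of the data: Msh5 and Brca2, whose libraries did not overlap, Msh4, the member with the lowest level, and Msh6, the one with the highest. The sequences run 5′ to 3′ on the gene's strand and are from RefSeq on GRCm38.p6. Capitals mark each match, on either strand, to CCAAT, the box bound by NF-Y, to GCGGGAA, a form of the E2F site, or to TTTGAA, a form of the CHR element of cell cycle genes.
Msh5, chr17:35046746-35046872, minus strand: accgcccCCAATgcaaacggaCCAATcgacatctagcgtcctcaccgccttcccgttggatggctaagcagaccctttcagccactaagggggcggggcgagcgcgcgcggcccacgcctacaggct
Msh4, chr3:153904892-153905141, minus strand: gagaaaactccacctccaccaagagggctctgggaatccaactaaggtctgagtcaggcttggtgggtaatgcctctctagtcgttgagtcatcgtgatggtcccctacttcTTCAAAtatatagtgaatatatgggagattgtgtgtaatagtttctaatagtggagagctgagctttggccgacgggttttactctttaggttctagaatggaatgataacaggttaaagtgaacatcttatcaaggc
Brca2, chr5:150522371-150522620, plus strand: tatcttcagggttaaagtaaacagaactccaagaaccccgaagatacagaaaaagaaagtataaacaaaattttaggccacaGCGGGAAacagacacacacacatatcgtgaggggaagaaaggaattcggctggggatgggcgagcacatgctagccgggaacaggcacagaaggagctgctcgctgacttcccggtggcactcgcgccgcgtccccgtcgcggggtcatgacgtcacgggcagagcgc
Msh6, chr17:87974800-87975049, plus strand: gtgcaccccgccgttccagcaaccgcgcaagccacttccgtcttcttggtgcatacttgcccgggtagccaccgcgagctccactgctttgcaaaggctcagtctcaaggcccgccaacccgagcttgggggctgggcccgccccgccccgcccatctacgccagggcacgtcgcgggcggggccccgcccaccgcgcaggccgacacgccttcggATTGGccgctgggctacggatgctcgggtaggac

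The stretch printed for Msh5 is the longest run of its window without annotated exons, 127 bases, and holds CCAAT 243 and 229 bases before the start. The whole window of Msh5 held 3 CCAAT and 1 GCGGGAA. Msh6 held the same box on the opposite strand, 34 bases before the start. Brca2 held GCGGGAA 168 bases before the start, and Msh4 held TTTGAA on the opposite strand at 138 bases. The RefSeq promoter table matched 31 of the 38 members, and those without an entry were Rad51d, Xrcc2, Rad54b, Fancd2, Exo1, Rad50 and Nbn. Over the 250 bases before the start, CCAAT was found in 19 of the 31 members (61.3%) and in 33.9% of 32851 promoters. GCGGGAA was found in 8 of 31 members (25.8%) and 3.82% of all promoters, and TTTGAA in 2 of 31 members and 16.0% of all. Matches to different motifs were counted separately, also where they shared bases. A match describes these letters only and is no sign that a factor binds there.

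Levels per length spanned a wide range among the members. In CPM per kilobase of exon, Msh6, the subunit that recognises single-base mismatches, stood highest at 57.1 ± 8.46 (SD over all 10 libraries). The 3 MRN subunits followed, with Mre11a at 14.8 ± 1.03, Nbn at 13.7 ± 1.40 and Rad50 at 13.3 ± 1.82. These 3 neighbours in the order lay within each other's spread, and so did Bard1 at 11.8 ± 2.08 and Fance at 11.3 ± 3.07. At the low end were Xrcc3 at 1.11 ± 0.218, Fancc at 0.590 ± 0.144 and Msh4 at 0.0756 ± 0.0318. Of the exonic bases of Xrcc3, 63.8% lie inside the body of Klc1, so its level per length is uncertain. Msh5 lay at 3.48 ± 1.07, far above its partner, as its lowest library (2.50) exceeded the highest of Msh4 (0.106). Among libraries of 1 diet the steadiest member was Mre11a, with an SD of log2 CPM of 0.108, and the most variable were Msh4 at 0.896, Fancc at 0.457 and Atm at 0.455. Msh5 stood at 0.176 by this measure.

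**Figure D2:**
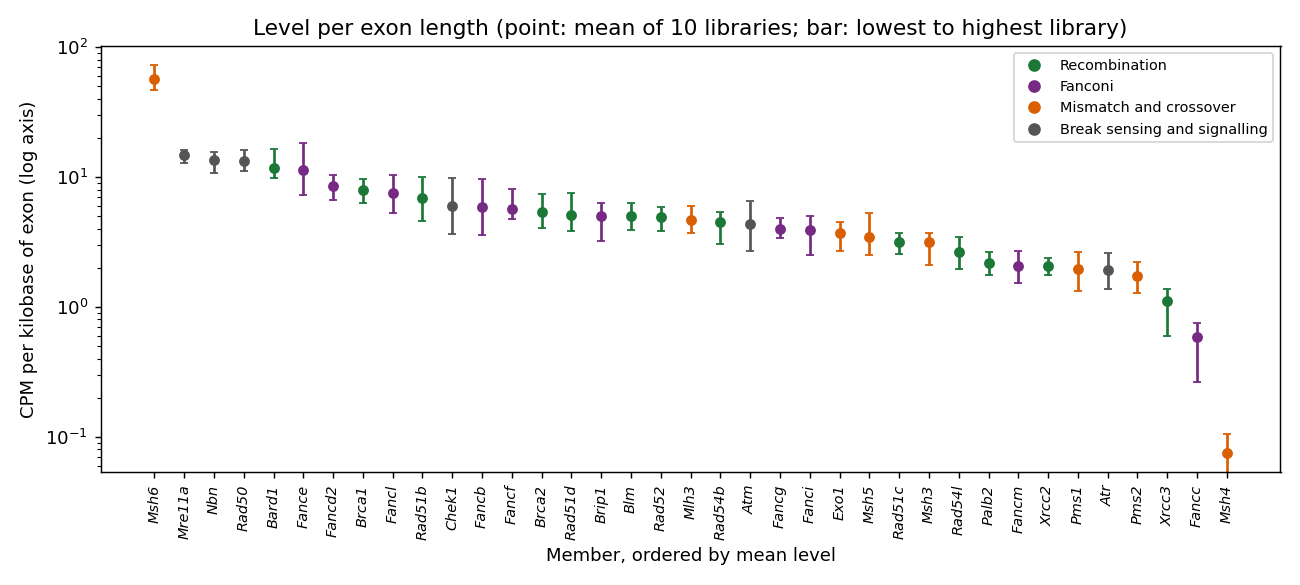
Level of the 37 tested members in CPM per kilobase of exon on a log axis, with the mean over 10 libraries as a point and the lowest and highest library as a bar. Msh6 stands alone at 57.1 and Msh4 is lowest at 0.0756, its bar running off the axis because 1 library is at 0.

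Among the recombination genes Brca2 differed most between the diets. BRCA2 carries the recombinase to resected DNA, and its gene lies on chromosome 5 at 150522630-150570329 (GRCm38, plus strand). Brca2 read 75.3, 102, 98.7, 80.0 and 69.6 CPM in normal-diet replicates 1 to 5. It read 62.7, 54.9, 64.1, 63.3 and 61.3 CPM in the arginine-deficient libraries. Every deficient library lay below every normal one, the nearest values being 64.1 and 69.6, with the highest levels in normal-diet replicates 2 and 3. The log2 fold change of Brca2 was -0.47 ± 0.125, a level 28% lower, and edgeR's adjusted p was 0.318. Over 20 alternative settings its log2 fold change ran from -0.58 to -0.31 and the adjusted p from 0.0128 to 0.889. DESeq2 (adjusted p = 0.0349), limma voom with sample weights (0.0128) and edgeR with GC and length slopes as covariates (0.0395), which called 0.526% of all genes, called it. The 3 tested genes on each side of Brca2 had log2 fold changes from -0.17 (B3glct) to 0.36 (Hsph1), and the diets overlapped for all 6.

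RAD51B and RAD51D are paralogues of the recombinase and members of a complex that helps to assemble the recombinase filament. Rad51b read 22.5, 32.1, 30.2, 37.5 and 25 CPM on the normal diet and 30.0, 20.7, 21.1, 22.3 and 17.2 CPM on the deficient diet. In 4 of 5 deficient libraries it lay below every normal one, arginine-deficient replicate 1 being the exception, and the log2 fold change was -0.40 ± 0.176. Rad51d read 23.5, 18.4, 19.1, 17.1 and 27.9 CPM on the normal diet and 15.8, 15.3, 14.3, 17.7 and 19.8 CPM on the deficient diet, with a log2 fold change of -0.35 ± 0.161. In 3 of 5 deficient libraries it lay below every normal one. In normal-diet replicate 5, the shallowest library, Rad51d was highest and its log2 fold change without that library was -0.24. Of the other paralogues, Rad51c (-0.11), Xrcc3 (-0.07) and Xrcc2 (0.10) lay closer to 0 than their standard errors.

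RAD54B is a motor protein that helps strand exchange. Rad54b read 27.8, 31.3, 29.6, 31.1 and 21.7 CPM on the normal diet and 23.9, 17.8, 27.6, 26.7 and 23.9 CPM on the deficient diet, with a log2 fold change of -0.24 ± 0.148, which was 0.036 with the mitosis level as a covariate. Its lowest value, in arginine-deficient replicate 2, stood apart below all others. Of the exonic bases of Rad54b, 40.4% lie inside the bodies of Fsbp and Gm11832, so how reads there were assigned is uncertain. RAD52 anneals single strands, and its gene showed the smallest difference of the group. Rad52 read 29.6, 28.6, 28.4, 28.5 and 26.9 CPM on the normal diet and 33.7, 30.1, 23.9, 21.9 and 30.4 CPM on the deficient diet, with a log2 fold change of -0.02 ± 0.131, which was 0.04 without arginine-deficient replicate 3 and 0.05 without arginine-deficient replicate 4. The 5 further recombination genes, Brca1, Bard1, Palb2, Rad54l and Blm, lay between -0.16 and -0.07, and 36.1% of the exonic bases of Rad54l lie inside Lrrc41.

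**Figure D3:**
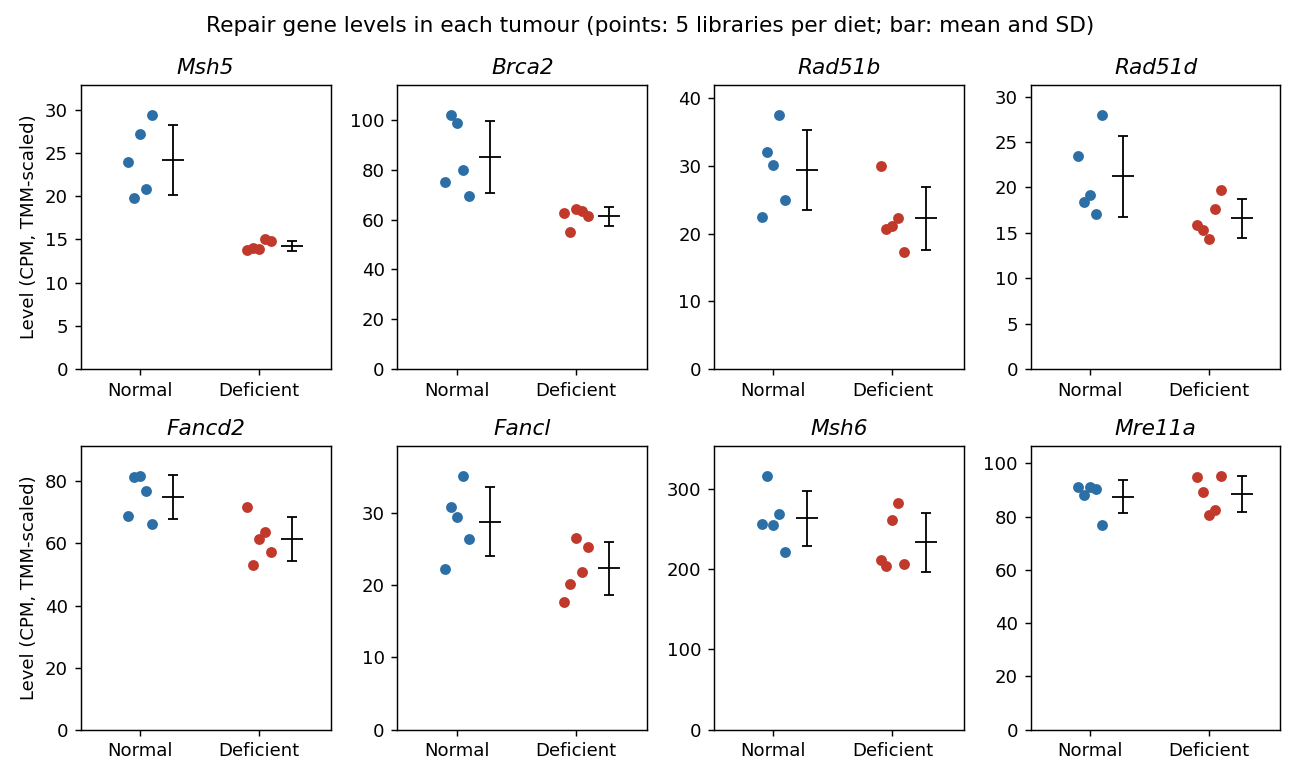
CPM of Msh5, Brca2, Rad51b, Rad51d, Fancd2, Fancl, Msh6 and Mre11a in each library, with the mean and SD of the 5 libraries of each diet. The diets are apart for Msh5 (13.8 to 15 against 19.8 to 29.4) and Brca2 (54.9 to 64.1 against 69.6 to 102) and overlap for the other 6 genes.

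In the Fanconi pathway the core complex, of which FANCL is the ubiquitin ligase, modifies the pair FANCD2 and FANCI. Fancd2 read 68.7, 81.4, 81.7, 76.9 and 66.2 CPM on the normal diet. It read 71.8, 53, 61.4, 63.6 and 57.2 CPM on the deficient diet, where 4 of 5 libraries lay below every normal one. Its log2 fold change was -0.29 ± 0.113, with an adjusted p of 0.647 in edgeR, a range of -0.38 to -0.15 over 20 settings, and adjusted p-values from 0.0461 to 0.9995, the lowest of them in limma voom. Fanci read 27.7, 28.8, 27.9, 25.8 and 14.5 CPM on the normal diet and 20.3, 16.8, 20.5, 21.7 and 20.0 CPM on the deficient diet, with a log2 fold change of -0.33 ± 0.177. Normal-diet replicate 5 held the lowest level of Fanci among all 10 libraries, and without it the log2 fold change was -0.47. Fancl read 22.2, 30.8, 29.5, 35 and 26.3 CPM on the normal diet and 17.7, 20.1, 26.6, 21.8 and 25.2 CPM on the deficient diet, with a log2 fold change of -0.37 ± 0.155. For Fancl 3 of 5 deficient libraries lay below every normal one.

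FANCM is the helicase that anchors the core complex on DNA. Fancm read 20.6, 27.8, 23.1, 28.1 and 18.8 CPM on the normal diet and 17.9, 16.1, 24.1, 20.1 and 20.1 CPM on the deficient diet, with a log2 fold change of -0.27 ± 0.156. Arginine-deficient replicates 1 and 2 lay below every normal library, and the other 3 within the normal range. FANCE and FANCF are further core subunits. Fance read 40.3, 27.5, 37.3, 29.7 and 58.1 CPM on the normal diet and 28.7, 37.7, 23.1, 39.7 and 38.3 CPM on the deficient diet, with a log2 fold change of -0.20 ± 0.216. Its highest value, in normal-diet replicate 5, stood well above the rest, and voom with sample weights put it at 0.01. Fancf read 8.58, 8.05, 8.86, 9.30 and 13.8 CPM on the normal diet and 8.98, 9.11, 11.4, 8.98 and 8.87 CPM on the deficient diet, with a log2 fold change of -0.03 ± 0.177. Each diet had 1 library that stood above the rest for Fancf, arginine-deficient replicate 3 and normal-diet replicate 5, and without the latter its log2 fold change was 0.12. Fancc read 6.15, 5.43, 4.94, 6.34 and 2.19 CPM on the normal diet and 5.42, 5.45, 3.97, 5.01 and 4.40 CPM on the deficient diet, a log2 fold change of -0.05 ± 0.259, and 73.4% of its exonic bases lie inside other genes. It was 0.02 to 0.04 without arginine-deficient replicate 3, normal-diet replicate 1 or normal-diet replicate 4. Of Fancb, Fancg and Brip1, the last a helicase partner of BRCA1, only Fancb was higher, at 0.10 ± 0.236.

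Msh5, a meiotic gene counted here in the mismatch repair group, stood apart in that group. It lies on chromosome 17 at 35028605-35046745 (GRCm38, minus strand), and none of its exonic bases falls inside another gene. Msh5 read 23.9, 19.8, 27.2, 20.8 and 29.4 CPM on the normal diet. It read 13.8, 14, 13.8, 15 and 14.8 CPM on the deficient diet. The deficient libraries kept to a narrow band, while the normal ones spread more widely and every one lay above them. Its mean was 14.3 ± 0.577 CPM against 24.2 ± 4.07 CPM (SD, n = 5 each), a log2 fold change of -0.76 ± 0.135 with a 95% interval from -1.06 to -0.47. That is 41.0% lower, rank 19 by p among the 12929 genes, with an adjusted p of 0.0699 in edgeR. Over 20 alternative settings the log2 fold change of Msh5 ran from -0.84 to -0.69, with adjusted p-values from 3.67e-05 to 0.518. DESeq2 (adjusted p = 3.67e-05), limma voom (0.00587) and the GC and length covariates in edgeR (0.0197) called it. Leaving out any 1 library gave an adjusted p between 0.0809 and 0.305.

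MSH4 and MSH5 form a sliding clamp on meiotic recombination intermediates. Msh4 had counts of 10, 15, 13, 7 and 0 on the normal diet and 18, 7, 20, 16 and 9 on the deficient diet. The 0, in normal-diet replicate 5, allows up to 3 counts, or 0.250 CPM on the unscaled total, and this floor covers counting error only. The log2 fold change of Msh4, 0.44 ± 0.482, was smaller than its standard error, and was 0.19 without normal-diet replicate 5 and 0.67 without normal-diet replicate 2. The 3 tested genes on each side of Msh5 lay between -1.01 and -0.08, and the diets overlapped for all of them. The lowest, Sapcd1 (-1.01 ± 0.464), was under 2 CPM on average in both diets. Ddah2, the neighbour nearest in level to Msh5, lay at -0.38 ± 0.343, a difference larger than its standard error. Among those above 50 CPM, Vars (-0.09), Clic1 (-0.15) and Abhd16a (-0.08), the differences were smaller than their standard errors.

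In the general mismatch repair machinery the differences were small. Msh6 read 256, 316, 254, 268 and 221 CPM on the normal diet and 211, 204, 261, 282 and 207 CPM on the deficient diet, with a log2 fold change of -0.17 ± 0.131. Mlh3, a MutL subunit with a part in meiosis, read 30.7, 45, 39.3, 40.7 and 33.2 CPM on the normal diet and 32, 28, 33.2, 34.9 and 32.8 CPM on the deficient diet, with a log2 fold change of -0.23 ± 0.126. Exo1, the exonuclease that removes the mismatched strand, was one of 4 genes of the group with a positive value. Exo1 read 33, 29.7, 31, 30.3 and 22.9 CPM on the normal diet and 30.7, 28.3, 28.7, 37.4 and 38 CPM on the deficient diet, with a log2 fold change of 0.15 ± 0.136. The diets overlapped for all 3 genes, with normal-diet replicate 2 highest for Msh6 and Mlh3 and normal-diet replicate 5 lowest for Exo1. The log2 fold change of Exo1 was 0.07 without that library, 0.09 without arginine-deficient replicate 4 or 5 and 0.26 with the mitosis level as a covariate. Msh3 (0.03), Pms2 (0.01) and Pms1 (-0.22) lay within their standard errors of 0, and 72.4% of the exonic bases of Pms2 lie inside other genes.

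The median of the break signalling genes was the nearest to 0 of the 4 groups, and its sign changed (to -0.08 at the lowest) when replicate 1 or 3 of the deficient diet, or 1 or 5 of the normal diet, was left out. Mre11a, the nuclease of the MRN complex, read 91.1, 88.1, 91.1, 90.3 and 76.7 CPM on the normal diet and 94.8, 89.1, 80.6, 82.5 and 95.2 CPM on the deficient diet. Its log2 fold change was 0.02 ± 0.0969, with a 95% interval of -0.20 to 0.23, and it was -0.03 without normal-diet replicate 5 and -0.01 without arginine-deficient replicate 1 or 5. Rad50, the ATPase that tethers DNA ends, read 65, 86.5, 77, 83.7 and 59.9 CPM on the normal diet and 63.8, 59.6, 79.1, 72.7 and 67 CPM on the deficient diet, with a log2 fold change of -0.12 ± 0.130. Nbn, which brings ATM to the break, read 31.5, 36, 33.3, 39.6 and 27.1 CPM on the normal diet and 34, 33.5, 37.7, 35.8 and 37.2 CPM on the deficient diet, with a log2 fold change of 0.09 ± 0.117. The MRN genes overlapped between the diets throughout. Atm read 32.8, 68, 44.6, 52.4 and 34.7 CPM on the normal diet and 55.1, 27.9, 51.9, 54.5 and 31.4 CPM on the deficient diet, with a log2 fold change of -0.07 ± 0.246. Chek1, the checkpoint kinase downstream of ATR, read 22.8, 34.2, 26.1, 32.7 and 16.9 CPM on the normal diet and 20.0, 24.1, 45.5, 30.4 and 25.7 CPM on the deficient diet, with a log2 fold change of 0.13 ± 0.240. Both kinases varied more among libraries of 1 diet than between the diets, and Chek1 turned negative (-0.08) without arginine-deficient replicate 3, while Atm turned positive without normal-diet replicate 2 (0.10), arginine-deficient replicate 2 (0.05) or arginine-deficient replicate 5 (0.02). With the mitosis level as a covariate Atm was at 0.37. Atr stood at 0.01 ± 0.191.

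The libraries differed in their overall level of repair transcripts in ways that the diets did not separate. The median deviation of the members from the normal-diet mean, in log2, was -0.12, -0.30, -0.0012, -0.07 and -0.15 in arginine-deficient replicates 1 to 5. It was -0.02, 0.15, 0.06, 0.09 and -0.29 in normal-diet replicates 1 to 5. Arginine-deficient replicate 2 and normal-diet replicate 5 were lowest over all members, and in these 2 libraries and arginine-deficient replicate 5 all 4 groups were below 0. Normal-diet replicate 2 was the highest for each of the 4 groups. In the recombination group the values ran from -0.35 to -0.03 on the deficient diet and from -0.24 to 0.14 on the normal diet.

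**Figure D4:**
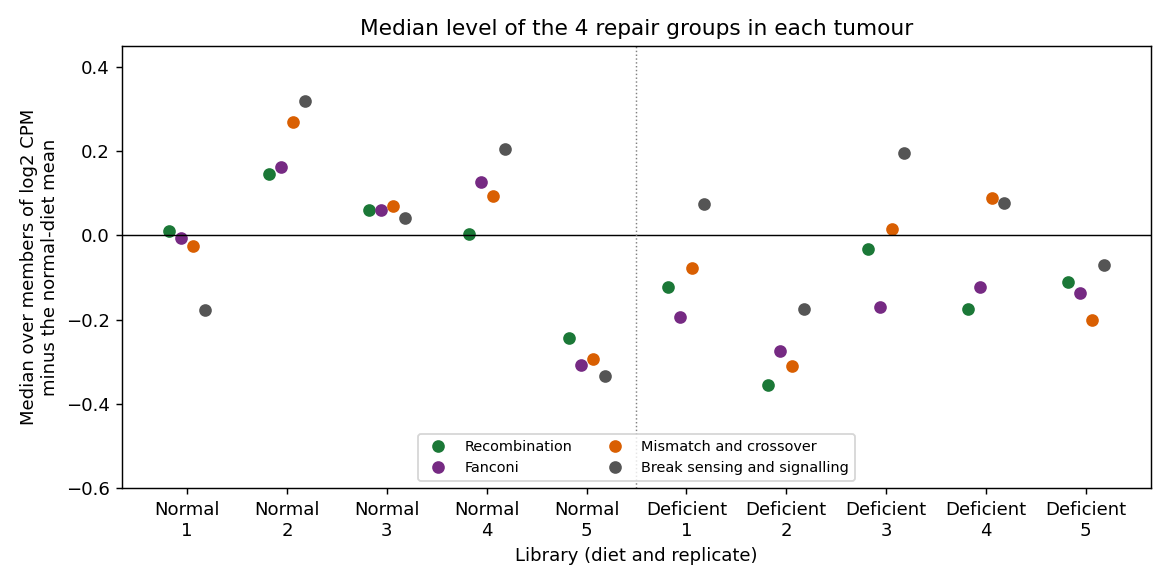
Median level of the recombination, Fanconi, mismatch repair and break signalling genes in each library, in log2 relative to the normal-diet mean of each gene. Normal-diet replicate 2 lies highest in all 4 groups, and arginine-deficient replicates 2 and 5 and normal-diet replicate 5 lie below 0 in all 4.

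Each member was also set against the mean level of the mitosis list over the 10 libraries of both diets together. Of 37 members, 32 had a positive Pearson r, with a median of 0.57, against 52.2% of all 12929 genes and a median of 0.04. An unadjusted permutation p under 0.05 with a positive r was found for 16 members, against 8.77% of all genes. Adjusted over all genes, an alternative added after seeing the data, 1 member passed, Rad54b (adjusted permutation p = 0.0450), against 0.101% of all genes with a positive r. Adjusted over the 37 relations of the members, which were chosen with results of these data known, 15 passed, all positive. The 15 were Brca1, Bard1, Palb2, Brca2, Rad54b and Blm in recombination, Fancm, Fancd2, Fanci and Brip1 in the Fanconi group, Msh6, Pms1 and Mlh3 in mismatch repair, and Rad50 and Atm in break signalling. Rad54b followed the list most closely, with r = 0.96 and rho = 0.95 (permutation p = 8.00e-05 for each, adjusted p = 0.00296 over the 37 relations). Without arginine-deficient replicates 2 and 5, the libraries farthest from the median mitosis level, its r was 0.95. Fancm had r = 0.84 and rho = 0.87 (permutation p = 0.00144 and 0.00217, adjusted 0.0263 and 0.0201), and r = 0.85 without those libraries. Fancd2 had r = 0.83 and rho = 0.84 (permutation p = 0.00213 and 0.00352, adjusted 0.0263 and 0.0220), and r = 0.58 without them.

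At the other end, Fance had r = -0.41 and rho = -0.42 (permutation p = 0.245 and 0.233), Rad52 r = -0.22 and rho = -0.31 (0.539 and 0.389), and Fancf r = -0.16 and rho = -0.47 (0.636 and 0.181), none of them passing. Without the same 2 libraries these were -0.56, 0.09 and -0.60. Msh5 had r = 0.42 and rho = 0.39 (permutation p = 0.229 and 0.265), and r = 0.09 without them. The count of 15 rested on a few libraries: it was 1 without normal-diet replicate 2 or 4, 3 without arginine-deficient replicate 2, 5 without normal-diet replicate 3, 9 without arginine-deficient replicate 5 and 4 without the 3 libraries richest in muscle markers. Taking deviations from the diet means it was 2, Rad54b and Atm, and with 23 tested S-phase genes, of 26 listed, in place of the mitosis genes it was 0. Rad54b passed in each of these sets except the S-phase one, where its r was 0.07.

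**Figure D5:**
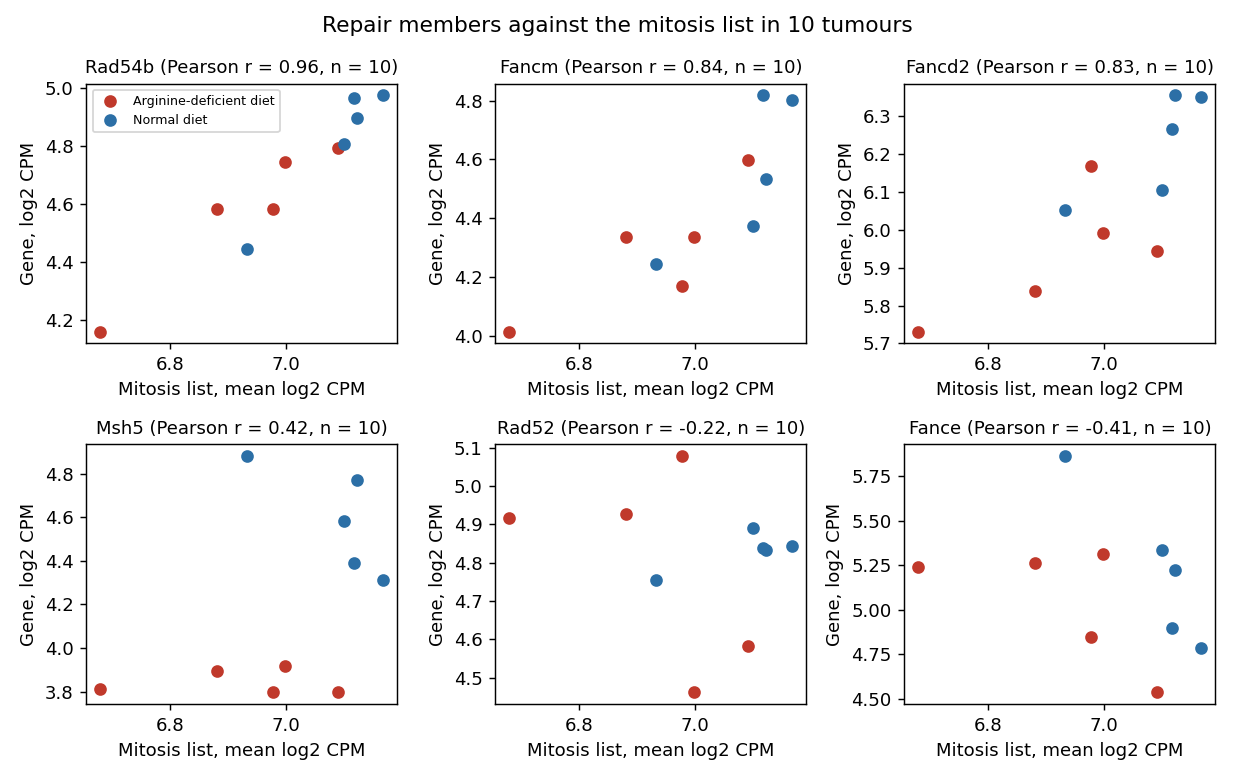
Log2 CPM of Rad54b, Fancm, Fancd2, Msh5, Rad52 and Fance against the mean log2 CPM of the mitosis list in the 10 libraries, coloured by diet. Points of Rad54b lie close to a rising line (r = 0.96), Msh5 separates by diet rather than along the axis (r = 0.42), and Fance slopes down (r = -0.41).

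The mitosis level also followed how each library weighted long genes by rho, though not by Pearson r after adjustment. Each library's log2 deviations were regressed on the GC content and the length of the genes. The mitosis level had r = 0.65 and rho = 0.81 with the length slope (permutation p = 0.0372 and 0.00698, adjusted 0.138 and 0.0419 over 6 relations). Without the 2 libraries farthest from the median length slope, r was 0.50. With the GC slope the mitosis level had r = -0.55 and rho = -0.56 (permutation p = 0.101 and 0.0964, adjusted 0.202 and 0.193). None of the other relations passed by either measure. Of the members, 9 passed with a negative and 1, Fance, with a positive relation to the GC slope, and 10 passed with a positive and 1, again Fance, with a negative relation to the length slope, over 74 relations adjusted together. The slopes were fitted to all genes tested, the members among them, and the matching share of all genes was not computed. These counts therefore show nothing particular to the members. With both slopes taken out, an alternative added after seeing the data, 4 members followed the mitosis level: Rad51d, Rad54b, Fancd2 and Msh5, of which 2 were among the 15. For this count, too, the share of all genes was not computed. How far the weighting of genes by GC content and length enters the relations of the other members was not tested further.

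Other genes of the same pathways, 61 listed and 58 of them tested, lay lower in 41 cases, with a median of -0.08 (all genes: 49.7% and 0.0012). In edgeR 0 passed and 3 had an unadjusted p under 0.05, where 6.74% of all genes did. These 3 were Ube2t, the ubiquitin-conjugating partner of FANCL (-0.28 ± 0.116), the nuclease gene Fan1 (-0.40 ± 0.174) and the helicase gene Recql4 (0.53 ± 0.233). Of 28 meiotic genes listed for comparison with Msh4 and Msh5, 12 were tested, 10 were lower, the median was -0.09 and 0 passed. The smallest p-values were those of Spo11, which makes meiotic breaks (-1.12 ± 0.347, edgeR adjusted p = 0.465), Syce2 (-0.49 ± 0.278) and Meioc (-1.42 ± 1.002), each under 4 CPM on average in both diets. Spo11 was the one with an unadjusted p under 0.05.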

How the data were processed

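Total RNA of 10 CT26 tumours was extracted with TRIzol and sequenced on Illumina platforms, per the labels' protocols. The authors deposited raw whole-number counts per gene. The submitters' processing notes name FastQC, STAR and featureCounts and the build mm10. Tool versions and any use of strand in counting are not given in the sources used. GENCODE M21 matched 21379 of 21849 identifiers with their version and 437 with another, and 33 had no symbol.

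From these counts, TMM-scaled CPM, log2 CPM (prior count 2), edgeR 4.0.16 quasi-likelihood tests on 12929 genes passing filterByExpr (99.9% of counts) and Benjamini-Hochberg adjustment over all of them were computed in R 4.3.3. Depth was 12013178 to 31530123 counts per library and the common biological coefficient of variation was 26.5%. In 3 simulated tables of 12929 genes, the diet test recovered 21.3% of 150 1.5-fold, 73.3% of 150 2-fold and 98.7% of 300 4-fold changes. It made 21 false calls in total. Many more genes were changed there than the 7 called in the data, and genes of low level were not among them. These shares therefore do not give the chance of calling a single member. Libraries were taken as separate mice, so p-values rest on the spread among them. No pair agreed within sampling noise (lowest chi-square per degree of freedom 16.8). Relations across libraries used two-sided permutation tests with 100000 resamples.

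DESeq2 1.42.0, limma 3.58.1 voom, other size factors and filters, covariates, and leaving out libraries were tried. The members and lists were chosen with earlier results of these data known. Genes were described in full by rule: the 4 smallest p-values of each role group, members whose diets did not overlap, the 2 highest and 2 lowest levels per kilobase, the 3 highest and 3 lowest r with mitosis, and the 3 smallest p-values of each comparison list.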

Additional observations from a re-analysis of the deposited data

Results flagged for a closer look

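In 6 of the 48 sets of 5 libraries examined, 1 library stood far from the other 4 by Dixon's criterion (gap over range above 0.71), where chance gives about 1 in 20. Fancf was at 11.4 CPM in arginine-deficient replicate 3, the rest of that diet lying at 8.87 to 9.11, and at 13.8 CPM in normal-diet replicate 5, against 8.05 to 9.30. Fanci was low in normal-diet replicate 5, at 14.5 CPM against 25.8 to 28.8, and so was Mre11a, at 76.7 CPM against 88.1 to 91.1. The muscle markers summed to 6996 CPM in arginine-deficient replicate 3, where the rest of that diet had 27.8 to 1949, and to 685 CPM in normal-diet replicate 4, against 36.2 to 119.6 in the others.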

How the results depend on the processing

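Among the recomputed main counts and medians, 122 values stayed within 1.5 times (counts) or 1 SD (medians) of the main value and 35 did not. The number of all genes called was 7, and was 130 with DESeq2, 373 with limma voom, 18 with a muscle covariate, 18 without the 3 libraries richest in muscle markers, 68 with GC and length slopes as covariates, 0 in edgeR with the mitosis level as covariate (1962 at an unadjusted p under 0.05) and 0 to 16 with 1 library left out: 0 without normal-diet replicate 1 or 3, 2 without replicate 1, 2 or 5 of the deficient diet, 2 without replicate 2 of the normal diet, 15 without normal-diet replicate 5 and 16 without arginine-deficient replicate 3. Members called were 2 with DESeq2, 3 with voom and 2 with the slopes, and 1 other repair gene, Recql4, was called with voom and with the slopes. With the mitosis covariate 15 members were negative and their median was 0.036 (all genes: 47.5% and 0.0198). Leaving out 1 library gave 26 to 31 negative members and medians from -0.21 to -0.09. Members without overlap between diets were 5 without the muscle-rich libraries and 2 to 4 with 1 library left out. Members following the mitosis list were 15, and were 0 with the S-phase list, 2 as deviations from diet means, 4 with the slopes taken out, 1 with p adjusted over all genes, 4 without the muscle-rich libraries and 1 to 12 with 1 library left out. The causes were not tested. Replicate numbers do not pair the libraries: correlations of same-numbered deviations ran from -0.35 to 0.18, and 1 of 10 libraries correlated best with its own number. With the number as a replicate block, 1 gene was called and no member, Msh5 being at an edgeR adjusted p of 0.518 and Brca2 at 0.889. Depth limits Msh4, with at most 20 counts in a library.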

Other observations

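The products of several members work in fixed partnerships, and 13 such pairs, chosen after the diet values were seen, were compared over the 10 libraries. None passed Benjamini-Hochberg adjustment, the lowest adjusted permutation p being 0.0796. Pms1 and Mlh3, both MutL genes, had r = 0.74 and rho = 0.81 (permutation p = 0.0146 and 0.0071, adjusted 0.0796 and 0.0923). Their r was 0.48 without the 2 libraries farthest from the median of Mlh3, the second gene named, a rule kept for each pair. Fancd2 and Fanci, which form the pair modified by the Fanconi core complex, had r = 0.70 and rho = 0.75 (permutation p = 0.0245 and 0.0173, adjusted 0.0796 and 0.0996), and r = 0.84 without such libraries. Mre11a and Rad50, of the same MRN complex, had r = 0.02 and rho = -0.12 (permutation p = 0.951 and 0.761), and r = -0.09 without them. Rad50 and Nbn, also of that complex, had r = 0.68 and rho = 0.67 (permutation p = 0.0229 and 0.0383, adjusted 0.0796 and 0.0996). Their r was 0.49 without such libraries. Atr and Chek1 had r = 0.72 and rho = 0.70 (permutation p = 0.0183 and 0.0296, adjusted 0.0796 and 0.0996), and r = 0.52 without them. For the pairs not named in this paragraph the adjusted permutation p of r ran from 0.231 to 0.814. The meiotic pair Msh4 and Msh5 had r = -0.59 and rho = -0.54 (permutation p = 0.0322 and 0.114, adjusted 0.0838 and 0.186), and r = -0.29 without them, with Msh4 at 0 to 20 counts.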
